A study of Rattus norvegicus with 6 samples.

Results

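The BMP and TGF-beta pathway genes described here are the ligands, binding proteins, receptors and SMAD proteins of 1 signalling family, together with the inhibitor of DNA binding (Id) genes that BMPs induce. Members were taken by gene symbol: Bmp, Gdf, Tgfb, Inhb, Smad and Acvr symbols followed by a digit, an r or a subunit letter, with Inha, Id1 to Id4, Nog, Chrd, Grem1, Fst and Ltbp1 to Ltbp4. The rule read symbols and no measured values, but the members were chosen with earlier results of these data known. The rule gave 53 of the 14217 genes with a probe set of their own on the array. Each gene was read from its brightest single-gene probe set. Of the 53 genes, 38 reached a stage mean of 100 intensity units and were tested, and 15 did not.

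The tissue was the choroid plexus of the lateral ventricles of Sprague-Dawley rats, the vascularised epithelium that secretes cerebrospinal fluid, at embryonic day 19 (E19), postnatal day 2 (P2) and in the adult. RNA of 2 separate pools of plexuses per stage was read on 1 Affymetrix Rat Genome 230 2.0 array each, 6 arrays in all, and the animals carried no transgene and received no treatment. The study's methods give 5 animals per pool at E19 and at P2 and 3 per pool in the adult, the labels give batches of 6 to 10 plexuses, and the adults were males while the sex of fetuses and pups is not given in the sources used here. Because animals were pooled, the spread between the arrays of a stage is that between pools and not that between animals.

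Ligands of this family are secreted dimers that bring together type I and type II receptor kinases, which phosphorylate receptor-regulated SMADs that enter the nucleus with SMAD4. BMPs act mainly through SMAD1, SMAD5 and SMAD9, and TGF-betas and activins through SMAD2 and SMAD3. Noggin and chordin trap BMPs outside the cell, latent TGF-beta binding proteins hold TGF-betas in the matrix, and SMAD6 and SMAD7 restrain the signal inside the cell. In the mouse, BMP signals at the dorsal midline of the forebrain are needed for the choroid plexus to form.

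Intensities are given in the arrays' fluorescence units, scaled so that each array had the same trimmed mean, and cannot be compared between probe sets. Probe sets of 100 units or more made up 53.3 to 53.5% of those on the E19 arrays, 52.7 to 53.5% at P2 and 50.02 to 51.0% in the adult. Median intensity was 125 units on both E19 arrays, 126 and 120.4 at P2 and, in adults, 106 and 100.1. The labelled tissue could be recognised on every array from Ttr, the thyroxine carrier of choroid plexus epithelium (12749.9 and 13345 units at E19, 12702 and 10837 at P2 and, in adults, 14847 and 11640.1), and from Otx2, a homeobox gene of that epithelium (12251 and 12608 units at E19, 11278 and 11174 at P2 and, in adults, 10059 and 10449).

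Promoter sequence was available from RefSeq (GRCr8) for 46 of the 53 genes, and the 250 bases before the annotated start are shown for 6 of them, chosen after their values were seen. Tgfb2 and Gdf11 are examples of genes that were lower in the developing plexus, and Nog, Chrd, Inhbb and Smad9 of genes that were higher. Each runs along the gene's strand and ends just before the start, at chr13:100792686-100792935 (minus strand) for Tgfb2, chr7:1905223-1905472 (minus) for Gdf11, chr10:74627502-74627751 (minus) for Nog, chr11:93685101-93685350 (minus) for Chrd, chr13:33089374-33089623 (minus) for Inhbb and chr2:141106418-141106667 (plus) for Smad9. Capitals mark the SMAD box GTCT or its other strand AGAC, the GC element GGCGCC, to which BMP SMADs can bind, the E-box CACGTG and the TATA box TATAAA.
Tgfb2: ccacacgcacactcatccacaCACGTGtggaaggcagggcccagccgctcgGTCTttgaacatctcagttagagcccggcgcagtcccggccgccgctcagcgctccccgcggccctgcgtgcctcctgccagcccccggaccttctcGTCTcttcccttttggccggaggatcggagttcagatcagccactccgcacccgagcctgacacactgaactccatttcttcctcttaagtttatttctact
Gdf11: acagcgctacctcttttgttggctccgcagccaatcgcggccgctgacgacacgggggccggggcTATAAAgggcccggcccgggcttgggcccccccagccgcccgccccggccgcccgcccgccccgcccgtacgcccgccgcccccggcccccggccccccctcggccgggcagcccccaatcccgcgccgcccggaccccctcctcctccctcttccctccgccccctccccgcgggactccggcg
Nog: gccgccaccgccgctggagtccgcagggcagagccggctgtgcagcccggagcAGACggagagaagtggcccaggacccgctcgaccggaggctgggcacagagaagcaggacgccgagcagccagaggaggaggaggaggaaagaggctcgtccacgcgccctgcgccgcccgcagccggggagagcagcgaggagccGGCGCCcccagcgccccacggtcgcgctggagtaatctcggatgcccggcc
Chrd: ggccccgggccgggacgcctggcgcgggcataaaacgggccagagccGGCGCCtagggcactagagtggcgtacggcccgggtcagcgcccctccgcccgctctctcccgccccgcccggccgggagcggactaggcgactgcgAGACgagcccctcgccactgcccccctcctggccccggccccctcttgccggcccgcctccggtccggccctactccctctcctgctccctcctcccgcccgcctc
Inhbb: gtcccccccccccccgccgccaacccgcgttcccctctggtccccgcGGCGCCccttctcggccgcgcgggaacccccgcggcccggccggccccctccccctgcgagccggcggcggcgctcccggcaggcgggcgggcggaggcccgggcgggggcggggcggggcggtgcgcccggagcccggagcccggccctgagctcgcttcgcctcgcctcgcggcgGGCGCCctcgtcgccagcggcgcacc
Smad9: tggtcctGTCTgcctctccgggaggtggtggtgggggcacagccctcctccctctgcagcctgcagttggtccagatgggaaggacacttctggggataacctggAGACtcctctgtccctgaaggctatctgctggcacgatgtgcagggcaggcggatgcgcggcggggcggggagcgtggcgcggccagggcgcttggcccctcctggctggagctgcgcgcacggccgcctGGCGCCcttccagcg

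The SMAD box is so short that 84.0% of all 33469 RefSeq promoters of that length hold it, and 35 of the 46 pathway genes did. GGCGCC stood in 8.69% of all promoters and in 12 of the 46 pathway genes, among them Nog, Chrd, Inhbb and Smad9 above, where Inhbb holds it at 2 places. It was found in 6 of the 12 genes that were higher at both E19 and P2 and in 0 of the 4 genes with an entry that were lower at both. The higher genes shown above all hold it and so do not represent that group of 12. The pathway promoters were also rich in G and C, with a median of 62.8% against 51.2% over all promoters, so that these counts are a description of the letters alone. CACGTG (5.59% of all promoters) was found in Tgfb2, Bmp4 and Tgfbrap1, and TATAAA (12.9%) in Gdf11, Gdf15, Bmpr1a, Id1, Inhba and Smad4.

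Most of the pathway genes that differed between the developing and the adult plexus were higher in the developing one. At E19, 15 of 38 tested members exceeded the adult and 5 were lower (limma's moderated test on log2 intensity, adjusted p under 0.05 by Benjamini-Hochberg over all 17808 tested probe sets), where 31.4% of all 10334 tested genes were higher and 25.2% lower. At P2, 16 members exceeded the adult and 5 were lower, against 28.8% and 21.8% of all tested genes. The median log2 difference of the 38 members was 0.38 at E19 and 0.28 at P2, or 0.18 and 0.15 with values under 100 units set to 100, and that of all tested genes was 0.04 and 0.05. The filter bears on this balance, since a gene under 100 units in the adult was tested only if a developing stage reached 100. Of the members called higher, Bmp5, Chrd, Gdf10, Inhbb, Nog, Smad9 and Tgfb3 were tested that way. All 5 lower ones reached 100 units in a developing stage as well as in the adult. Both comparisons use the same adult arrays. Scaling each array to the median in place of the trimmed mean moved the median probe set's log2 difference to -0.23 at E19 and -0.22 at P2, against 0.05 and 0.04, and changed the balance to 12 members higher and 10 lower at E19 and to 10 higher and 9 lower at P2, and that of all genes to 2087 higher and 4172 lower at E19 and to 1966 higher and 3763 lower at P2.

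Against the adult, 24 members were called at 1 or both stages. Genes higher at both stages were Bmp5, Chrd, Gdf10, Id3, Inhbb, Ltbp1, Nog, Smad1, Smad5, Smad9, Tgfb1i1 and Tgfbr1, and genes lower at both were Tgfb2, Bmp2, Gdf11, Gdf15 and Ltbp3. Acvr2b, Bmpr1a and Smad6 passed the test at E19 alone, and Bmp4, Id1, Smad4 and Tgfb3 at P2 alone, which does not show that E19 and P2 differed. Each fit was repeated without each array in turn, and 14 of the 20 calls at E19 and 13 of the 21 at P2 were kept in all 6 of these fits. Both Smad9 calls were kept in 5 of them and not tested without E19 pool 2, where the gene fell under 100 units. The other settings tried were no minimum intensity (no filter), a minimum of 200 units, values under 100 units set to 100, median or quantile scaling, the mean of a gene's probe sets, the compared stages alone, a spread that follows intensity and pool number as a block. In whole tissue, fewer cells of a type and less RNA per cell cannot be told apart.

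**Figure D1:**
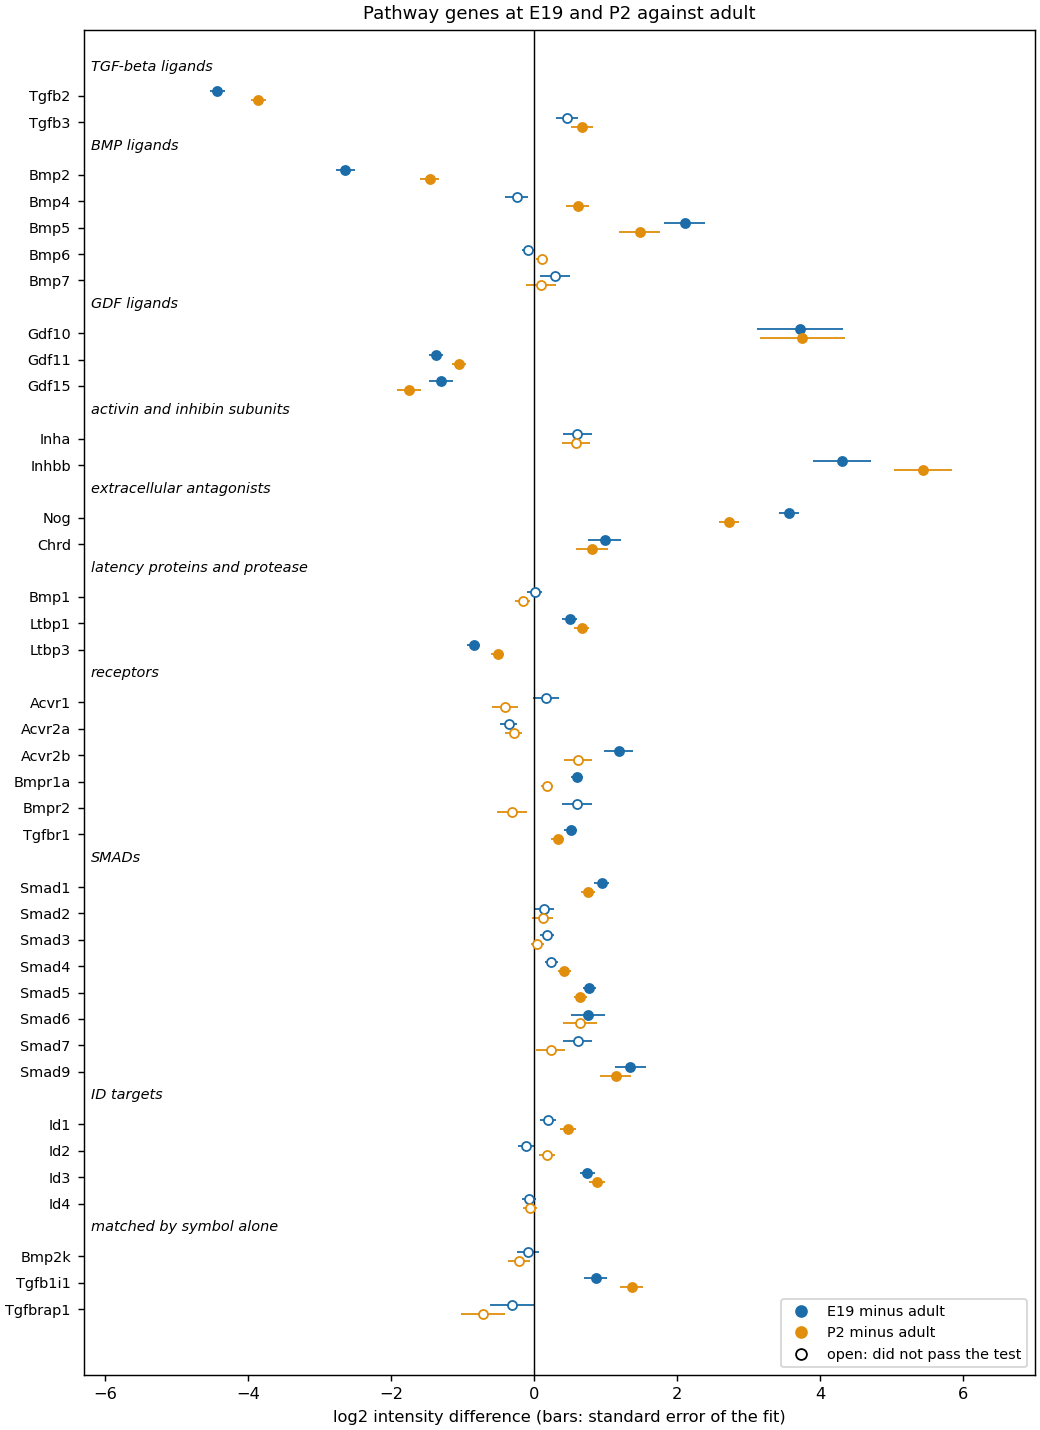
Difference in log2 intensity from the adult of the 38 tested genes at E19 (blue) and P2 (orange), by role, with bars for the standard error of the fit over 2 pools per stage; filled points passed the test and open points did not. Tgfb2 lies farthest to the left at both stages and Inhbb farthest to the right at P2. Both adult arrays of Inhbb lay under 100 units, so its P2 fold is only a bound (at least 1.63-fold). Adult arrays of Bmp5, Chrd, Gdf10, Inha, Nog, Smad9 and Tgfb3 lay under 100 units too.

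**Figure D2:**
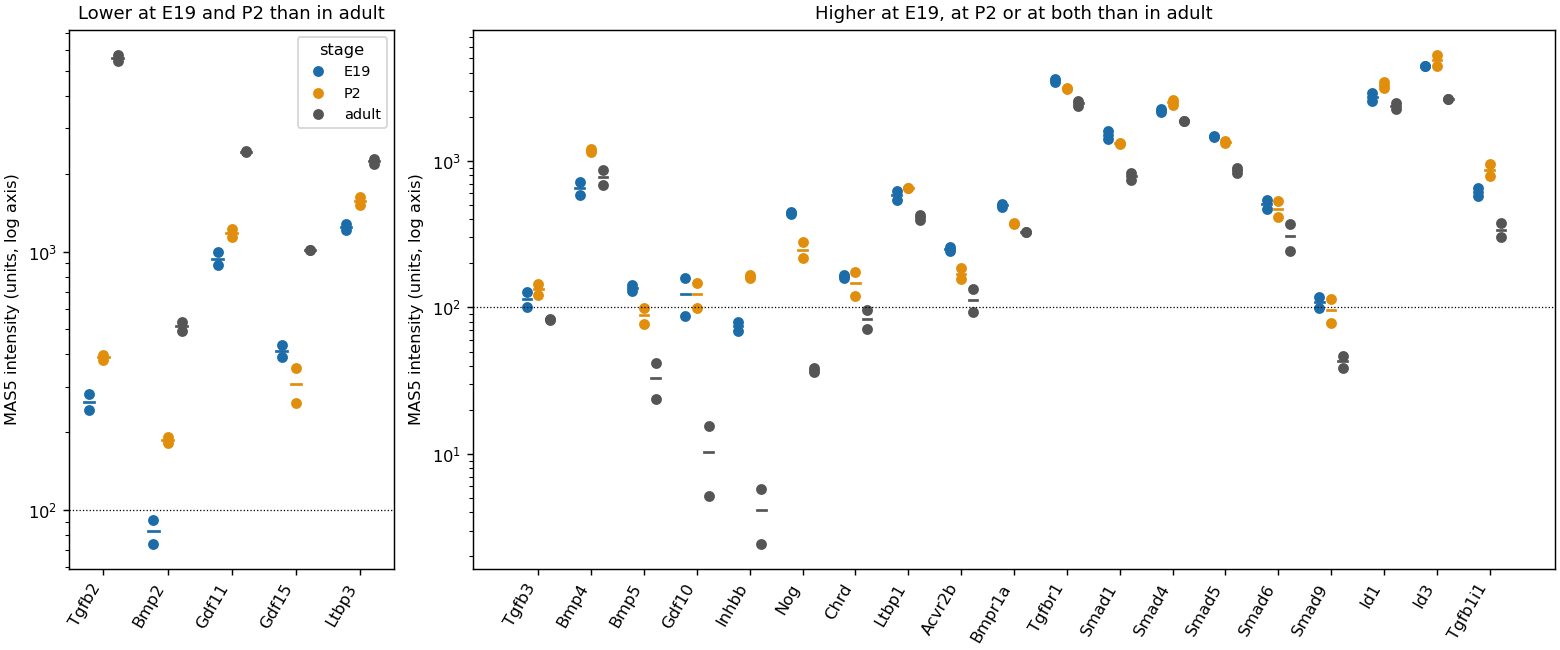
MAS5 intensity (log axis) on each array of the 24 genes called against the adult, E19 in blue, P2 in orange and adult in grey, with a dash at the mean of each stage's 2 pools and a dotted line at 100 units. The left panel holds the 5 genes lower at both stages, in which no E19 or P2 array reached the adult arrays.

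Among the TGF-beta ligands, Tgfb2, whose secreted ligand is needed for heart and skull development in the mouse, read 243 and 281 units at E19, 397 and 382 at P2 and, in adults, 5479 and 5777. Every developing array lay far below both adult arrays, and the P2 arrays lay above those at E19. Intensity was 21.5-fold lower at E19 than in the adult (log2 difference -4.43 ± 0.11, SE, adjusted p = 5.23e-05) and 14.5-fold lower at P2 (log2 -3.85 ± 0.11, adjusted p = 8.01e-05). Tgfb3, a ligand needed for palate closure in the mouse, was dim throughout and did not share that direction. Its arrays read 128 and 101 units at E19, 144 and 122 at P2 and, in adults, 83.8 and 82, with no overlap between developing and adult arrays. It exceeded the adult by at least 1.32-fold at P2 (adjusted p = 0.0187), while E19 did not pass (log2 0.46 ± 0.15, adjusted p = 0.0546). The P2 call was lost without P2 pool 1 or without either adult pool (adjusted p up to 0.0805), and under 4 of the other alternatives, among them median and quantile scaling.

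Of 8 BMP ligand genes 5 were tested, and they moved in different directions. Bmp2, which acts through the BMP SMADs in bone and heart, read 73.8 and 91.6 units at E19, 182 and 191 at P2 and, in adults, 493 and 534. The stages did not overlap and the adult arrays were the highest. It was at least 5.13-fold lower at E19 than in the adult (log2 -2.64 ± 0.13, adjusted p = 0.000182) and 2.75-fold lower at P2 (log2 -1.46 ± 0.13, adjusted p = 0.0011). Bmp4, a close relative of Bmp2 that is made at the dorsal forebrain midline of the mouse embryo, did not share that pattern. Its arrays read 719 and 588 units at E19, 1145 and 1209.8 at P2 and, in adults, 864 and 687. Both P2 arrays lay above all others, and the E19 and adult arrays overlapped. Bmp4 exceeded its adult level by 1.53-fold at P2 (log2 0.61 ± 0.16, adjusted p = 0.0278), a call lost without either P2 pool, without adult pool 2, with no intensity filter and after median scaling (adjusted p up to 0.111). Bmp5, of the same subgroup as Bmp6 and Bmp7, read 130.1 and 142 units at E19, 99.6 and 77.6 at P2 and, in adults, 41.8 and 23.9. Its 2 adult arrays were the lowest and no E19 or P2 array overlapped them, but only the E19 arrays passed 100 units. The E19 level exceeded it by at least 1.36-fold (log2 2.11 ± 0.29, adjusted p = 0.00319). At P2 (log2 1.48 ± 0.29, adjusted p = 0.0117) no fold is given, and that call was lost without P2 pool 1 (adjusted p = 0.0607), with no filter (0.0522) and with values under 100 units set to 100. Bmp6, the ligand that controls hepcidin in the liver, read between 1819 and 2221 units and Bmp7, needed for kidney and eye in the mouse, between 864 and 1255 units over the 6 arrays. Neither passed a test against the adult (lowest adjusted p = 0.287).

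Of 5 GDF genes 3 were tested, 2 of them lower and 1 higher in the developing plexus. Gdf11, a relative of myostatin that signals through activin type II receptors, read 993 and 887 units at E19, 1137 and 1225 at P2 and, in adults, 2451 and 2419. The developing arrays stood apart from the adult ones, with E19 lowest. It was 2.59-fold lower at E19 (log2 -1.38 ± 0.10, adjusted p = 0.000453) and 2.06-fold lower at P2 (log2 -1.05 ± 0.10, adjusted p = 0.00128), where the call was lost with the mean of the gene's probe sets (adjusted p = 0.121). Gdf15, a distant member induced by cell stress whose receptor lies in the hindbrain, read 392 and 435 units at E19, 260.1 and 353 at P2 and, in adults, 1018 and 1017. Its P2 arrays were the lowest. The differences from the adult were 2.46-fold at E19 (log2 -1.30 ± 0.16, adjusted p = 0.00244) and 3.36-fold at P2 (log2 -1.75 ± 0.16, adjusted p = 0.00127). Gdf10, also named Bmp3b, read 87.2 and 159 units at E19, 148 and 98.5 at P2 and, in adults, 5.17 and 15.5. Only 1 array of each developing stage passed 100 units, and both adult arrays were near the bottom of the scale. The excess over the adult was at least 1.18-fold at E19 (log2 3.72 ± 0.60, adjusted p = 0.00525) and at least 1.21-fold at P2 (log2 3.75 ± 0.60, adjusted p = 0.00599). With values under 100 units set to 100 both calls were lost (adjusted p = 0.334 and 0.422). The log2 differences were 2.93 at E19 and 2.96 at P2 without adult pool 1 and 4.51 and 4.54 without adult pool 2.

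Of the activin and inhibin subunits, Inhbb, which encodes the beta B subunit shared by activin B and inhibin B, read 79.3 and 69.1 units at E19, 167 and 159 at P2 and, in adults, 5.81 and 2.43. The 3 stages did not overlap, and P2 was the only one above 100 units. It exceeded the adult by at least 1.63-fold there (log2 5.44 ± 0.41, adjusted p = 0.000671). At E19 the test passed too (log2 4.30 ± 0.41, adjusted p = 0.000973), but all 4 arrays of that comparison lay under 100 units, so no fold is given and nothing remained with such values set to 100. The log2 differences were 3.67 at E19 and 4.81 at P2 without adult pool 2 and 4.93 and 6.07 without adult pool 1. Inha, the alpha subunit that makes an inhibin of a beta subunit, read 117 and 97.5 units at E19, 119 and 93.4 at P2 and, in adults, 80.3 and 61.2. Every developing array lay above both adult arrays, and neither stage passed (adjusted p = 0.0501 at E19 and 0.0584 at P2).

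Both tested antagonists of BMPs among the members were higher in the developing plexus, against 31.4% of tested genes at E19 and 28.8% at P2. The antagonists Sostdc1 and Nbl1, from the further pathway genes, were not. Sostdc1 read 15737 and 15544.5 units at E19, 16823 and 17165 at P2 and, in adults, 20130 and 18137. It was lower at E19 (log2 -0.29 ± 0.09, adjusted p = 0.0451) and did not pass at P2 (0.179). With no filter or after quantile scaling its E19 call was lost (0.145). The same held with the compared stages alone (0.0683) and with pool number as a block (0.0762). That call was lost too without any single array but adult pool 2. Nbl1 passed at neither stage (0.0795 and 0.197). Nog, which encodes noggin, read 449.9 and 435 units at E19, 218 and 278 at P2 and, in adults, 36.2 and 38.3. The stages were fully separated, with E19 highest and the adult below 100 units. Noggin mRNA exceeded the adult by at least 4.42-fold at E19 (log2 3.57 ± 0.14, adjusted p = 0.000104) and by at least 2.46-fold at P2 (log2 2.72 ± 0.14, adjusted p = 0.000246), and no alternative removed either call. Chrd, which encodes chordin, read 159.9 and 167 units at E19, 174 and 120.0 at P2 and, in adults, 95.5 and 71. The developing arrays lay above the adult ones, with a wide spread at P2. The difference was at least 1.63-fold at E19 (adjusted p = 0.0171) and at least 1.44-fold at P2 (adjusted p = 0.0349). Both calls were lost with no filter, the E19 call without either E19 pool or adult pool 2 (adjusted p up to 0.0783), and the P2 call without P2 pool 1, adult pool 2 or either E19 pool (up to 0.127), after median or quantile scaling and with the compared stages alone.

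The 2 tested latent TGF-beta binding proteins went in opposite directions. Ltbp3, which is needed for normal TGF-beta release in mouse bone, read 1279 and 1209.6 units at E19, 1628 and 1508 at P2 and, in adults, 2191 and 2273. The order E19, P2, adult held without overlap. It was 1.79-fold lower at E19 (log2 -0.84 ± 0.09, adjusted p = 0.00143) and 1.42-fold lower at P2 (log2 -0.51 ± 0.09, adjusted p = 0.00846). Ltbp1, which ties latent TGF-beta to fibrillin fibres, read 542 and 619.6 units at E19, 655 and 648 at P2 and, in adults, 428 and 394. Here the adult arrays were the lowest. It was 1.41-fold higher at E19 (log2 0.50 ± 0.11, adjusted p = 0.013) and 1.59-fold higher at P2 (log2 0.67 ± 0.11, adjusted p = 0.00588). The E19 call was lost without E19 pool 2 or adult pool 2, with no filter and after median scaling (adjusted p up to 0.129). Bmp1, a protease that trims procollagen and cleaves chordin despite its name, read between 456 and 566 units and did not pass (adjusted p = 0.938 at E19 and 0.255 at P2).

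Of 8 receptor genes 6 were tested, and 3 were higher at E19 and 1 at P2 than in the adult. The share of all tested genes called higher was 31.4% at E19 and 28.8% at P2. Acvr2b, a type II receptor of activins and GDF11, read 243 and 259.8 units at E19, 184 and 155 at P2 and, in adults, 92.5 and 133. The stages descended from E19 to adult without overlap. It was 2.27-fold higher at E19 (log2 1.18 ± 0.20, adjusted p = 0.006), and P2 did not pass (log2 0.61 ± 0.20, adjusted p = 0.0522). Bmpr1a, a type I receptor of BMP2 and BMP4, read 485 and 509.8 units at E19, 374 and 371 at P2 and, in adults, 328 and 328. Again E19 was highest and the adult lowest. It was 1.51-fold higher at E19 (log2 0.60 ± 0.08, adjusted p = 0.003), and P2 did not pass (log2 0.18 ± 0.08, adjusted p = 0.117). Tgfbr1, the type I receptor of TGF-betas, read 3635 and 3438 units at E19, 3080.3 and 3146 at P2 and, in adults, 2580.3 and 2378. It was 1.43-fold higher at E19 (log2 0.51 ± 0.09, adjusted p = 0.00701) and 1.26-fold higher at P2 (log2 0.33 ± 0.09, adjusted p = 0.0319), without overlap between developing and adult arrays. The E19 call was lost without E19 pool 1 (adjusted p = 0.0504), and the P2 call without any single array but adult pool 1 (up to 0.116). Both were lost after median scaling and with the mean of its probe sets, where the log2 difference at P2 was -0.032 (adjusted p = 0.805), and the P2 call was lost too with no filter, with the compared stages alone and with pool number as a block (adjusted p up to 0.119). Acvr1, Acvr2a and Bmpr2, which bind BMPs, activins or both, passed no test in the fit reported (lowest adjusted p against the adult = 0.0558). Bmpr2 read 1083 and 1074 units at E19, 717 and 459 at P2 and, in adults, 694 and 728, with both E19 arrays above all others (log2 0.60 ± 0.22, adjusted p = 0.0642). That E19 difference passed with the compared stages alone (adjusted p = 0.00815), where the wide P2 spread played no part. It passed too with a spread following intensity (0.018), a minimum of 200 units (0.0473) and values under 100 units set to 100 (0.0497).

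All 8 SMAD genes were tested, and 4 were higher at E19 and 4 at P2 than in the adult. Of all tested genes, 31.4% were higher at E19 and 28.8% at P2. The 3 BMP-regulated SMADs were among the higher SMAD genes at both stages. Smad1 read 1596 and 1419 units at E19, 1330.2 and 1307 at P2 and, in adults, 745 and 821. It was 1.93-fold higher at E19 (log2 0.95 ± 0.10, adjusted p = 0.00157) and 1.69-fold higher at P2 (log2 0.75 ± 0.10, adjusted p = 0.00395). Smad5 read 1452 and 1487 units at E19, 1371 and 1322 at P2 and, in adults, 826 and 893. It was 1.71-fold higher at E19 (log2 0.77 ± 0.09, adjusted p = 0.0017) and 1.57-fold higher at P2 (log2 0.65 ± 0.09, adjusted p = 0.00368). In both genes every developing array lay above the adult arrays, and the calls held with any array left out. Smad9 was dim, at 99.5 and 119 units at E19, 114 and 77.9 at P2 and, in adults, 46.9 and 38.9. It exceeded the adult by at least 1.09-fold at E19 (log2 1.35 ± 0.22, adjusted p = 0.00557), and passed at P2 (log2 1.14 ± 0.22, adjusted p = 0.011) with no fold, since its mean there lay under 100 units. Both calls were lost with values under 100 units set to 100 (adjusted p = 0.412 and 0.54), and the P2 call with no filter (0.0509).

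The TGF-beta SMADs did not pass. Smad2 read between 586 and 751 units and Smad3 between 906 and 1107 units over the 6 arrays (lowest adjusted p = 0.154). Smad4, the shared partner, read 2160.5 and 2266 units at E19, 2619 and 2406 at P2 and, in adults, 1863 and 1882. It exceeded the adult by 1.34-fold at P2 (adjusted p = 0.0147), a call lost without P2 pool 1 or either adult pool, with no filter and after median scaling (adjusted p up to 0.197), and at E19 it did not pass (0.0701). Of the inhibitory SMADs, Smad6 read 543 and 472 units at E19, 414 and 530.4 at P2 and, in adults, 244 and 369.7, with a wide adult spread and no overlap. Its E19 level was 1.68-fold that of the adult (adjusted p = 0.0458), and the call was lost without any single array but adult pool 2 (up to 0.176), with no filter, after median or quantile scaling and with the compared stages alone. Smad7 read 729 and 689.8 units at E19, 450.4 and 661 at P2 and, in adults, 431 and 501 and did not pass (0.0521 at E19 and 0.378 at P2).

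The Id genes encode helix-loop-helix proteins without a DNA binding region, which hold E proteins away from DNA and are classic targets of BMP SMADs. Id3 read 4461 and 4418 units at E19, 4450.4 and 5300.0 at P2 and, in adults, 2628 and 2661. Every developing array lay above both adult arrays by a wide margin. It was 1.68-fold higher at E19 (log2 0.75 ± 0.11, adjusted p = 0.00404) and 1.84-fold higher at P2 (log2 0.88 ± 0.11, adjusted p = 0.00302). Id1 read 2560.5 and 2887 units at E19, 3129.7 and 3475 at P2 and, in adults, 2497 and 2249. It was 1.39-fold higher at P2 (log2 0.48 ± 0.12, adjusted p = 0.0224), a call lost without P2 pool 2 or adult pool 2, with no filter and after median scaling (adjusted p up to 0.175), and did not pass at E19 (0.2). Id2 read between 3419 and 4560.3 units and Id4 between 2322 and 2629 units, and neither passed (lowest adjusted p against the adult = 0.211).

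Tgfb1i1, Bmp2k and Tgfbrap1 met the symbol rule but encode a focal adhesion protein, a kinase and a receptor-associated protein. Tgfb1i1 read 576 and 653 units at E19, 791 and 954 at P2 and, in adults, 303 and 374. It was 1.82-fold higher at E19 (log2 0.86 ± 0.16, adjusted p = 0.00828; 0.0508 without E19 pool 2) and 2.58-fold higher at P2 (log2 1.37 ± 0.16, adjusted p = 0.00234). Bmp2k and Tgfbrap1 did not pass (lowest adjusted p = 0.108).

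The difference between P2 and E19 was itself tested, which asks what changed around birth. Bmp2, Bmp4 and Tgfb2 were higher and Bmpr1a and Nog lower at P2 than at E19, where 3.61% of all tested genes were higher and 2.56% lower. Bmp2 had 182 and 191 units at P2 against 73.8 and 91.6 at E19 (at least 1.87-fold; log2 1.18 ± 0.13, adjusted p = 0.0221). Bmp4 had 1145 and 1209.8 units at P2 against 719 and 588 at E19 (1.81-fold; log2 0.86 ± 0.16, adjusted p = 0.0454). Tgfb2 had 397 and 382 units at P2 against 243 and 281 at E19 (1.49-fold, adjusted p = 0.0447). In all 3 ligands both P2 arrays lay above both E19 arrays. Nog had 218 and 278 units at P2 against 449.9 and 435 at E19 (1.8-fold lower; log2 -0.85 ± 0.14, adjusted p = 0.0373), and Bmpr1a 374 and 371 at P2 against 485 and 509.8 at E19 (1.34-fold lower, adjusted p = 0.0486). None of the 5 calls was kept whichever array was left out: Bmp2 and Bmp4 lost it without any 1 of the E19 and P2 pools (adjusted p up to 0.116 and 0.194), and Tgfb2, Nog and Bmpr1a without any one of the 6 arrays (up to 0.201, 0.181 and 0.225). With no intensity filter limma called 0 members in this comparison, and 6 were higher and 4 lower at an unadjusted p under 0.05.

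Other probe sets of the same genes gave a second reading of 12 members. At E19, 8 of the 17 tested ones were called, 7 with the sign of the brightest probe set and 1, of Smad7, with the opposite sign, and at P2 the counts were 4 and 1, of Smad5, whether or not the brightest probe set was itself called. The second Tgfb2 probe set read 112 and 129 units at E19, 142 and 149.9 at P2 and, in adults, 1474 and 1335 (log2 -3.54 at E19, adjusted p = 7.02e-05, and -3.26 at P2, adjusted p = 0.000101). Both probe sets of Tgfb2 thus had every developing array below the adult arrays. Smad5 was not read alike by its 4 probe sets: 2 others were higher at both stages, and 1 read 242 and 213 units at P2 against 304 and 319 in the adult (log2 -0.46, adjusted p = 0.016). The second Smad4 probe set was higher at E19 too (log2 0.99, adjusted p = 0.00461), and the second Smad7 probe set was lower there (log2 -1.74, adjusted p = 0.0191), at 21.9 and 44.3 units at E19 against 125 and 86.5 in the adult.

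**Figure D3:**
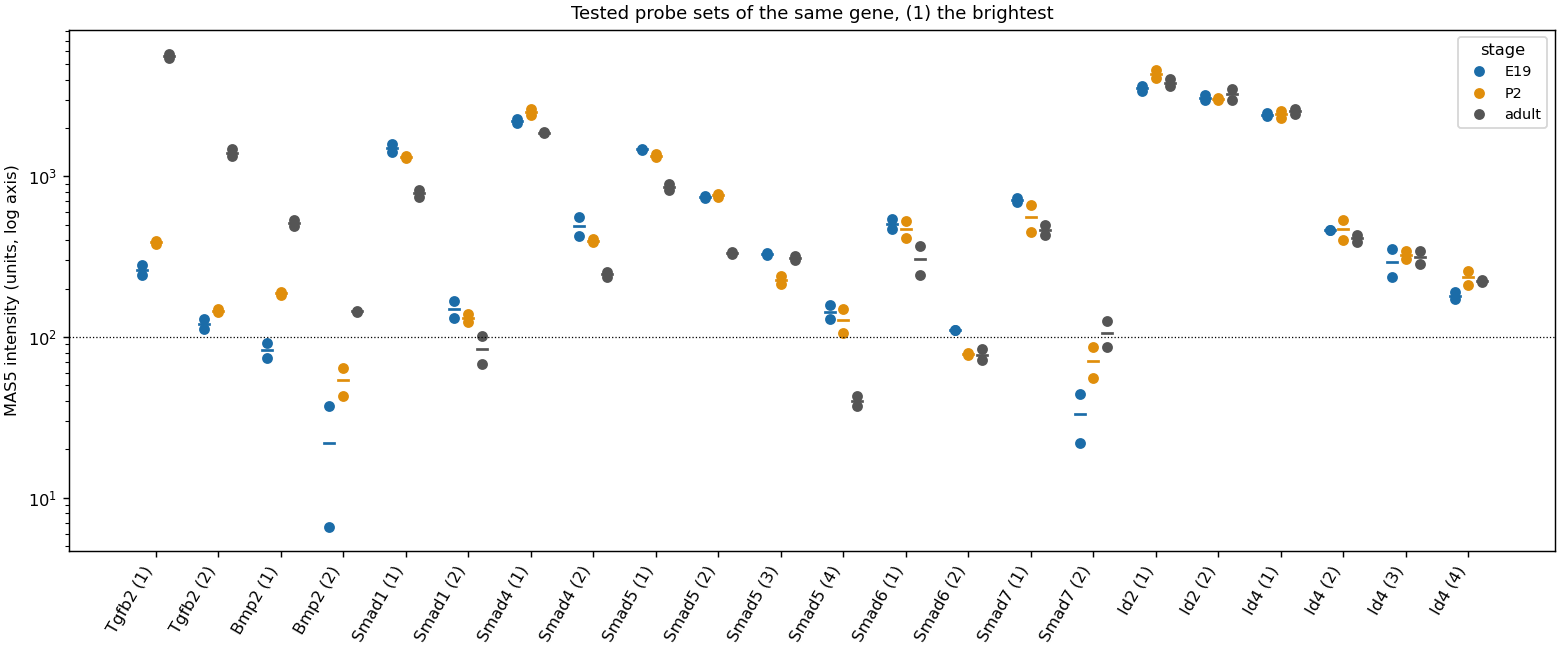
MAS5 intensity (log axis) per array for tested probe sets of 9 members with several, numbered from the brightest, with E19 in blue, P2 in orange, adult in grey, a dash at the stage mean and a dotted line at 100 units. Both Tgfb2 probe sets have their adult arrays far above the developing ones, and the third Smad5 probe set has its P2 arrays below the adult ones.

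The 15 members that were not tested lay under 100 units on all 6 arrays. They were the ligand genes Tgfb1, Bmp3, Bmp8a, Bmp15, Gdf6, Gdf9, Inhba, Inhbc and Inhbe, the antagonists Grem1 and Fst, the latency genes Ltbp2 and Ltbp4, and the receptors Acvr1c and Tgfbr3. Their stage means ran between 1.87 and 66.4 units. Tgfb1, the ligand of immune and matrix control, read 41.6 and 26.8 units at E19, 36.4 and 51.9 at P2 and, in adults, 8.85 and 5.29, all under the minimum of 100 units.

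Of 87 further pathway genes listed by role, 71 were on the array and 60 were tested. At E19, 27 exceeded the adult and 13 were lower (23 and 20 after median scaling), and at P2, 25 were higher and 7 lower (21 and 19), with median log2 differences of 0.14 and 0.18. Of 14 tested target genes, 9 were higher and 3 lower at E19 and 9 higher and 2 lower at P2. After median or quantile scaling, 7 were higher and 3 lower at E19 and 7 higher and 2 lower at P2. Of all tested genes, 31.4% were higher and 25.2% lower at E19, and 28.8% higher and 21.8% lower at P2. Among the target genes Msx2, a homeobox gene like Msx1 below, read 1219 and 1199 units at E19, 816 and 874 at P2 and, in adults, 698 and 770. It was higher at E19 (log2 0.72 ± 0.09, adjusted p = 0.00276) and did not pass at P2 (0.131). The genes lower at both stages held an inhibitor, an activator and a target of the pathway. Pmepa1, which is induced by TGF-beta and holds back SMAD2 and SMAD3, read 2435 and 2187 units at E19, 2417 and 2809 at P2 and, in adults, 6256 and 5828 (log2 -1.39 ± 0.12 at E19, adjusted p = 0.000717; -1.21 ± 0.12 at P2, 0.00138). Itgb6, the integrin subunit that frees latent TGF-beta in epithelia, read 1263 and 1405 units at E19, 1891 and 1994 at P2 and, in adults, 3061 and 2943 (log2 -1.17 ± 0.10, adjusted p = 0.00065; -0.63 ± 0.10, 0.00532). Msx1, a homeobox target of BMPs, read 6587 and 6727 units at E19, 9603 and 9016 at P2 and, in adults, 14669 and 13645 (log2 -1.09 ± 0.09, adjusted p = 0.000655; -0.60 ± 0.09, 0.00483). In these 3 genes, as in Tgfb2, the adult arrays were the highest. Cdkn1a, the cell cycle inhibitor p21, was lower as well (log2 -1.95 ± 0.11 at E19, adjusted p = 0.000253; -1.44 ± 0.11 at P2, 0.000757).

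Those higher at both stages included the repressor Tgif1, which binds SMAD2 and SMAD3. Tgif1 read 833 and 819.8 units at E19, 684 and 743 at P2 and, in adults, 69.4 and 75.8 (at least 8.26-fold at E19, adjusted p = 5.23e-05; at least 7.13-fold at P2, 8.55e-05). The endothelial receptors Acvrl1 (at least 4.24-fold, adjusted p = 0.000445; at least 5.05-fold, 0.000479) and Eng (5.19-fold, 0.000578; 7.42-fold, 0.000447) and the pseudoreceptor Bambi (2-fold, 0.00217; 2.04-fold, 0.00251) were higher at E19 and P2. So were matrix genes that TGF-beta can induce: Ccn2 (5.4-fold at E19, 5.01-fold at P2), Tgfbi (3.2-fold, 4.15-fold), Fn1 (5.01-fold, 4.08-fold), Col1a1 (8.11-fold, 7.17-fold) and Col3a1 (14.8-fold, 13.8-fold), with adjusted p at most 0.00327. Over all tested genes, 31.4% were higher at E19 and 28.8% at P2. Of the 9 tested extracellular modulators, 3 were higher at both stages, and 1 was lower at E19 and 0 at P2. These 3 were Dcn, Bgn and Fstl1, secreted proteins that bind TGF-beta or BMP ligands or receptors. Fstl1 was higher by 2.65-fold at E19 and 2.55-fold at P2 (adjusted p = 0.000277 and 0.000408). These 16 genes, Pmepa1 to Fstl1, kept both calls whichever array was left out.

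**Figure D4:**
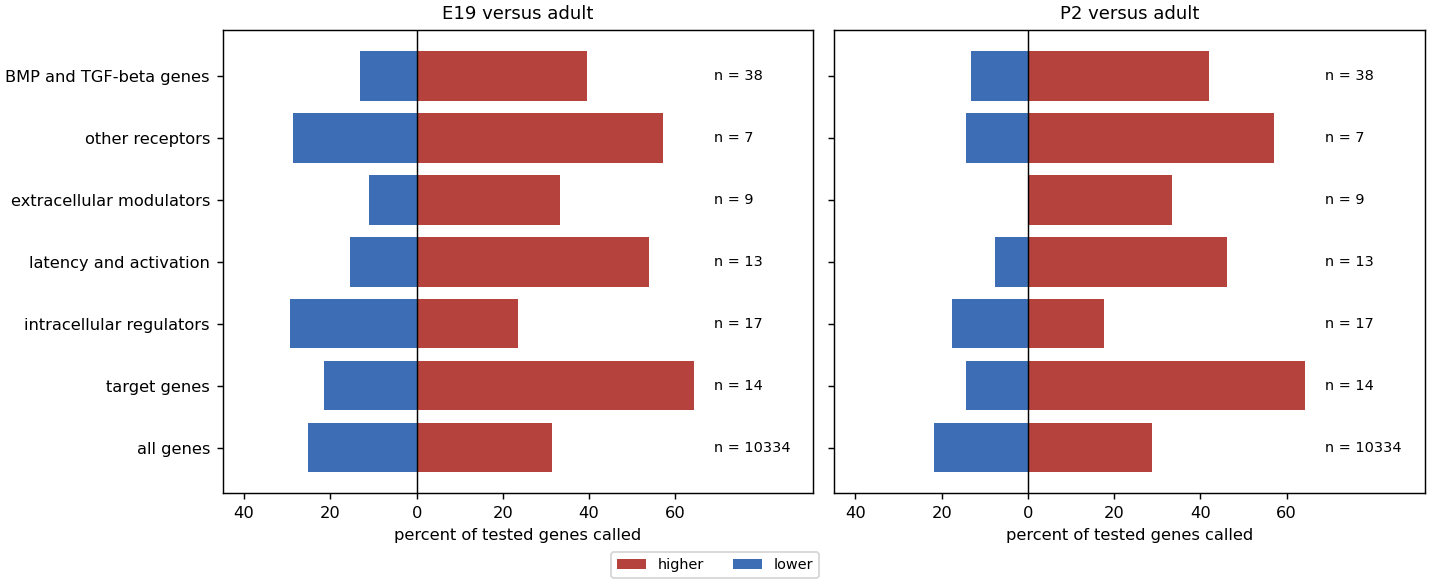
Percent of tested genes called higher (red, right of 0) or lower (blue, left of 0) at E19 and at P2 than in the adult, for the 38 BMP and TGF-beta genes, 5 lists of further pathway genes and all 10334 tested genes, with n the number tested. The share of members called higher was 39.5% at E19 and 42.1% at P2, against 31.4% and 28.8% of all genes.

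Most markers of the vessels and stroma of the plexus were also higher at E19 and P2. All 11 tested endothelial markers were higher at both stages, and their summed intensity was 11533 to 12163 units at E19, 11310.3 to 11946 at P2 and 2220.0 to 2247 in the adult. Of 11 tested fibroblast and matrix markers, 8 were higher and 2 lower at each stage, with sums of 24279.9 and 24361 units at E19, 29521 and 26588 at P2 and, in adults, 9495 and 10337. The lower ones were Pdgfra at both stages (log2 -0.83, adjusted p = 0.00461, and -0.64, 0.0122), Fbln1 at E19 and Dpt at P2. Mural cell markers summed to 4307 and 4074 units at E19, 4439 and 4203 at P2 and, in adults, 1028 and 1054, and 6 of 9 were higher at E19 and 7 at P2. All 10 cell cycle genes were higher at both stages. Of 13 tested epithelial markers, 3 were higher and 6 lower at E19 and 2 higher and 5 lower at P2, with sums of 108944 and 109882 units at E19, 118380 and 113306 at P2 and, in adults, 161952 and 155299. No marker list's sum was near 0 at any stage. Dim genes also read above 0, so the sums do not show that each cell type was present. Eng belongs to both the receptor and the endothelial list, and Col1a1, Col3a1 and Dcn to the fibroblast list. The part of these cell types in the differences of the pathway genes was not tested.

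Macrophage markers summed to 3453 units on both arrays at E19, 5553 and 4261 at P2 and, in adults, 9044 and 9219.7, with 2 of 10 higher and 2 lower at E19 and 6 higher and 2 lower at P2. The lower sum of the developing plexus rested on Lyz2 and Cd74, and without these 2 genes the list summed to 2392 and 2325 units at E19, 3334 and 2626 at P2 and, in adults, 1440.0 and 1431, with the adult lowest. Of 5 tested astrocyte and oligodendrocyte markers, 4 were lower and 1 higher at E19 and 3 lower and 1 higher at P2, and Mbp, a protein of myelin, read 23.3 and 43.6 units at E19, 77 and 5.76 at P2 and, in adults, 1989 and 656. The adult pools thus differed from each other in Mbp, and both read it above every developing array. The part of myelin in the differences of the members was not tested. Neural progenitor markers summed to 8273 and 8524 units at E19, 10918 and 10912 at P2 and, in adults, 13380 and 12862, with 4 of 7 higher and 2 lower at E19 and 4 higher and 1 lower at P2. Without Dbi that list was lowest in the adult, at 3226 and 3410 units at E19, 4196 and 3723 at P2 and, in adults, 2224 and 2522.

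Tgfb2, Bmp2, Gdf11, Gdf15 and Ltbp3 were the members lower at both developing stages. They shared that direction with Prlr, F5 and Slc4a10, which carried the epithelial sum, and with Mbp and most other tested glial markers. The other epithelial markers were mixed. Kl and Enpp2 were lower at both stages and Sostdc1 at E19. Krt8 and Krt18 were higher at both stages and Otx2 at E19, and Ttr, Aqp1, Folr1 and Htr2c passed at neither. The lower members shared their direction with Lyz2, Cd74 and Dbi as well, but not with the summed rest of the macrophage and progenitor lists. Nog, Chrd, Smad1, Smad5 and Id3 shared theirs with all tested endothelial and cell cycle markers and with most fibroblast and mural ones, though not Pdgfra. Whether any of them followed those cells was not tested.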

How the data were processed

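Lateral ventricle choroid plexus RNA of 2 pools each at E19, P2 and in the adult was read on 6 arrays. The deposited values are intensity on a linear scale. The authors obtained them in Affymetrix Expression Console by MAS5, whose version the sources used here do not give, and each array has the same trimmed mean. No detection calls were used. A common scale can shift every gene of a stage if total RNA differs, and for arrays the number of pools limits the precision.

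After removal of 57 control probe sets, 17808 of 31042 probe sets had a mean of 100 units or more in some stage and were tested. Log2 intensities of all 6 arrays were fitted with 1 mean per stage in limma 3.58.1 (R 4.3.3), without a block, with contrasts of each developing stage with the adult and of P2 with E19, and p was adjusted over all tested probe sets. Where both arrays of the dimmer stage lay under 100 units, the fold is a bound against 100 units, and no fold is given where both stages did or the bound was under 1. The stage groups came from the labels.

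Probe sets were named by matching the platform annotation to RefSeq genes (GRCr8): 20826 had 1 gene, 436 several and 9780 none. A gene was represented by its brightest probe set, on average, among those with no other gene. Gdf1 shared its 2 probe sets with Cers1 and was left out. Any gene that met the symbol rule could be named, and of the other pathway genes those called in at least 1 comparison. Members called at least once are given with every array and the rest by their range. The members and lists were chosen with earlier results of these data known.

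The fit was tested on simulated data. Alternatives changed the filter, scaling, low values, spread, block, arrays in the fit and probe set rule, and left out each array in turn, when a lone array was assumed to have the spread of the remaining stages. Promoters were searched on both strands for exact letters with Python 3.11.15.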

Additional observations from a re-analysis of the deposited data

Results flagged for a closer look

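Bmp4 lay on opposite sides of the adult level at the 2 developing stages, above it at P2 (log2 difference 0.61) and below it at E19 (-0.24, which did not pass the test). The difference between the stages was itself tested: P2 minus E19 was 0.86 on the log2 scale (limma, adjusted p = 0.0454, both P2 arrays above both E19 arrays). That call was lost when any 1 of the E19 or P2 pools was left out, with adjusted p up to 0.194. With 2 pools per stage no array could be tested for standing apart from its group.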

How the results depend on the processing

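Of the 46 calls of BMP and TGF-beta genes, 27 were kept in all 6 fits without 1 array and 22 under all 9 other alternatives. A further 2, of Smad9, were kept in the fits that tested them but not tested without E19 pool 2, and 2, Bmp5 at E19 and Inhbb at P2, were not tested at a minimum of 200 units, nor Bmp5 with the mean of its probe sets. Of the calls, 1 value turned its sign: Tgfbr1 at P2 versus adult was -0.032 on the log2 scale with the mean of its probe sets (adjusted p = 0.805). Calls were gained as well as lost. Higher ones gained under some other settings included Smad7 and Bmpr2 at E19, Acvr2b at P2 and Inha at both stages. Lower ones gained included Acvr2a at both stages, Bmp4, Bmp6, Id2 and Id4 at E19, and Acvr1, Bmp1 and Tgfbrap1 at P2. All of these lower calls were gained under median scaling, and some under other settings too. Median scaling gave 10 pathway genes lower at E19 and 10 higher and 9 lower at P2 than in the adult, and over all genes 2087 higher and 4172 lower at E19 and 1966 higher and 3763 lower at P2. With no filter, 10 pathway genes were higher at P2, and over all genes 1703 were lower at E19 and 1232 at P2. Leaving out single arrays gave 10 to 15 pathway genes higher at P2 than in the adult, 10 without P2 pool 1, and 1720.0 to 2519 of all genes lower at E19.

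P2 versus E19 moved most. The pathway genes higher and lower, against 3 and 2 in the fit reported, were 0 and 0 with no filter, 0 and 1 with the mean of probe sets and 6 and 4 with the spread following intensity, while lower ones were 4 with values under 100 units set to 100, 1 after median scaling and 0 with the compared stages alone. Over all genes, against 373 and 265, limma called 580 and 409 with a minimum of 200 units, 694 and 550 with values under 100 set to 100, 904 and 701 with the spread following intensity and 0 and 0 with no filter, where 1267 and 968 had an unadjusted p under 0.05. Without 1 array, 0 to 3 pathway genes were higher and 0 lower (at an unadjusted p under 0.05, 4 to 8 higher and 3 to 6 lower), and 0 to 321 of all genes were higher and 0 to 233 lower. The fewest calls came without an E19 or P2 pool.

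Pool numbers did not pair the samples: deviations of same-numbered pools correlated at -0.06, -0.04 and 0.01 between stages over 17808 probe sets. With pool number as a replicate block, 1 pathway gene was higher and 0 lower at P2 than at E19 (limma; 7 and 6 at an unadjusted p under 0.05), and 37 and 22 of all genes were. The causes of these shifts were not tested. Genes near 100 units, such as Bmp5, Gdf10, Inhbb, Chrd, Smad9 and Tgfb3, are limited by signal over background.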
